A study of Mus musculus with 18 samples.

Results

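The genes described here are 44 genes of glutathione conjugation, NRF2-controlled detoxification and antioxidant defence in mouse liver. They were taken by name from a fixed list, 44 of the 23532 genes in the deposited table, and all 44 passed the filter on low values that left 10356 genes for testing. They comprise 19 glutathione transferases, of which 4 are of the alpha class, 6 of the mu class, 2 of the pi class, 5 of the theta, kappa or omega classes and 2 microsomal. The other 25 are the regulator pair Nfe2l2 and Keap1, 4 enzymes of quinones, heme, epoxides and carbonyls, 4 of glutathione synthesis and recycling, 5 of the thioredoxin and glutaredoxin system, 8 that remove peroxide or superoxide and 2 exporters of conjugates.

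The 18 libraries hold polyA RNA of whole liver of wild-type C57BL/6J mice, in 6 groups of 3 libraries. These were LF, LF with CR (LF+CR), LF with Ex (LF+Ex), HF, HF with CR (HF+CR) and HF with Ex (HF+Ex), with treatment started in mice aged 5 weeks and livers collected at 62 weeks. The labels hold only the abbreviations. Knowledge of similar studies gives low-fat diet for LF, high-fat diet for HF, caloric restriction for CR and exercise for Ex. Neither the sex of the mice nor whether a library is 1 animal is labelled, so each p-value is against the scatter of these samples alone, which may be technical.

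NRF2, the transcription factor encoded by Nfe2l2, is held in the cytoplasm and marked for degradation by KEAP1. When reactive compounds modify KEAP1, NRF2 accumulates, enters the nucleus and binds antioxidant response elements near genes such as Nqo1, Gclm, Srxn1 and many glutathione transferases. Glutathione transferases attach glutathione to reactive compounds, exporters of the ABCC family move the conjugates out of the hepatocyte, and the glutaredoxin and thioredoxin systems return oxidised protein thiols to their reduced form.

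Levels are RPKM (reads corrected for transcript length and for the reads in the library), given as mean ± SD over n = 3 libraries. Each difference is in log2(RPKM + 1), with its SE, estimated with limma, a linear model with moderated variances, and "called" means an adjusted p under 0.05 (Benjamini-Hochberg, all 10356 genes). The depth is not known, because no counts were used. Steps among the lowest values gave no usable depth, since at most 45.3% of those values lay within 0.1 of a whole read. Across genes, r between 2 libraries of a group was 0.952 to 0.989, and r between groups was 0.928 to 0.986.

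Hepatocyte genes were high in all 18 libraries, with Apoa1 at 5638 RPKM or more and Ttr at 4393 RPKM or more, while Alb was listed at 0 in 14 libraries, which can be a failed estimate. The 4 libraries with a value for Alb, HF 1 and the 3 of HF+Ex, had 30395 to 33218 RPKM. Of 11 bile duct markers, 9 were at 0.1 RPKM or more in LF 2 and in HF+CR 3 and 4 to 7 fell below that level in each of the other 16 libraries. Their summed level was 153 RPKM in LF 2 and 172 RPKM in HF+CR 3, against 15.7 to 75.3 RPKM elsewhere. Spp1 made up most of it, and Sctr was at 0 in 17 libraries and Cftr in 14. Of 12 pancreas markers, 11 were at 0.1 RPKM or more in LF+CR 1, LF+Ex 1 and HF+CR 1, with sums of 2098, 42.3 and 382 RPKM. HF+CR 2 reached 38.6 RPKM and the other libraries 12.7 RPKM at most. LF 2 and HF+CR 3 are called the bile duct libraries below, but they were also the highest of their groups in the summed Kupffer cell and macrophage markers (474 and 453 RPKM), stellate cell and fibroblast markers (162 and 165 RPKM) and lymphocyte markers (7.13 and 9.79 RPKM). Leaving them out thus removes the highest library of its group for 4 marker lists together. The pancreas libraries are HF+CR 1, LF+CR 1 and LF+Ex 1. Results are also given without each of these sets, a choice made after seeing the data.

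The antioxidant response element core TGACNNNGC was searched on both strands of the RefSeq promoter window of the 37 genes that have one, from 250 bases before to 50 after the start. It was present in 10 of the 37 (27.03%), against 3781 of 27025 genes with a promoter entry (13.99%). A match is a description of letters and not a site of binding. The stretches of 5 genes are shown for the regulator NRF2 itself and for 4 of its textbook kind of target, and the 100 bases before the start of Glrx are shown because Glrx was the gene most often called below. Capitals mark the match, read 5′ to 3′ on the strand of the gene, where GC first and TCA last is the core on the opposite strand. Positions are RefSeq on GRCm38.p6.
Nfe2l2, chr2:75704870-75704913, minus strand: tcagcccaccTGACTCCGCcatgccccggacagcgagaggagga
Gclm, chr3:122245398-122245456, plus strand: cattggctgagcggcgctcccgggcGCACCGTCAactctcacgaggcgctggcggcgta
Prdx1, chr4:116685441-116685499, plus strand: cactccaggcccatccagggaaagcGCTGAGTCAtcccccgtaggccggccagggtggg
Txnrd1, chr10:82859089-82859147, plus strand: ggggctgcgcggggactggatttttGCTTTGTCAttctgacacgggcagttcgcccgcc
Mgst1, chr6:138140446-138140504, plus strand: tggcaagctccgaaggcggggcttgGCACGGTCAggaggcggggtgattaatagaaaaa
Glrx, chr13:75839785-75839884, plus strand: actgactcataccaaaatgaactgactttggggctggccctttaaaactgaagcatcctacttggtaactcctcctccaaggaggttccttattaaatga
The core was not among the letters of the Glrx window. Nqo1, Gclc and Hmox1 were not among the 10 genes with a match either. Letters outside the window were not searched, so a missing match does not show that a gene lacks the core. Of the genes called in at least 1 comparison, Mgst1 held the core, and Abcc3 had no promoter entry.

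The genes spanned a wide range of levels. Mgst1, a membrane-bound glutathione transferase, had the highest mean over the 18 libraries at 2985 RPKM, followed by Gstm1 at 2460 RPKM, the cytosolic superoxide dismutase Sod1 at 2343 RPKM, the glutathione peroxidase Gpx1 at 1933 RPKM and catalase, Cat, at 1048 RPKM. The summed level of the 19 glutathione transferases was 8892 ± 2266 RPKM in LF, 9247 ± 780 in LF+CR, 7720 ± 472 in LF+Ex, 8331 ± 748 in HF, 7572 ± 1067 in HF+CR and 8393 ± 1160 in HF+Ex. The 8 genes that remove peroxide or superoxide summed to 7214 ± 749 RPKM in LF, the highest group, and 6299 ± 323 RPKM in HF+CR, the lowest. The SDs of neighbouring groups overlapped in both sums.

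**Figure D1:**
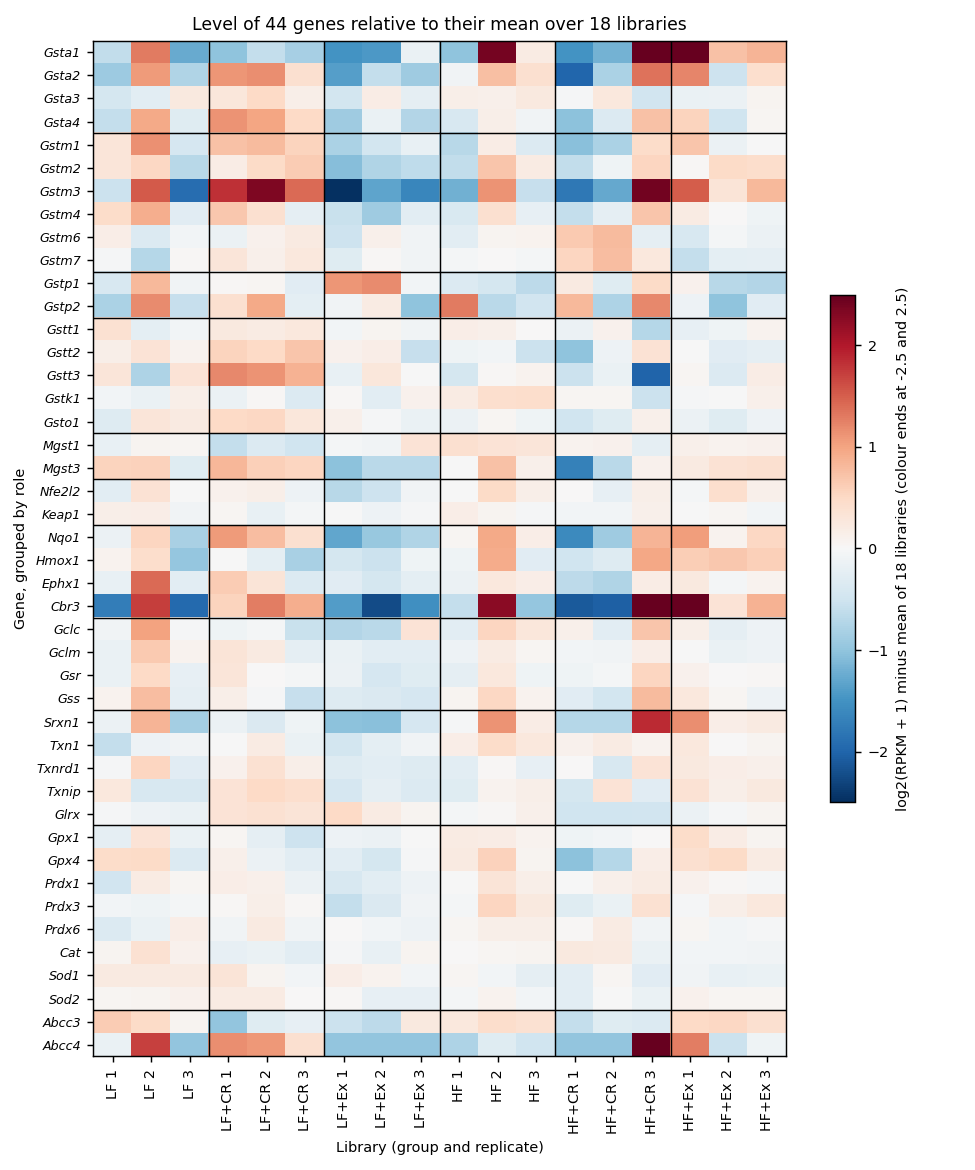
Level of each of the 44 genes (rows, grouped by role) in each of the 18 libraries (columns), as log2(RPKM + 1) minus the mean of the gene over the 18 libraries. LF 2, HF 2 and HF+CR 3 are redder than the other libraries of their groups across many rows, and the 3 LF+Ex libraries are bluer, with 6 to 10 of the 44 genes above their mean. HF+CR 1 and HF+CR 2 had 12 such genes each and LF 3 had 14. HF+CR 1 was the lowest of the 18 libraries for 11 genes.

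Many of the 44 genes varied more between libraries of 1 group than most liver genes did. The median within-group SD of log2(RPKM + 1) was 0.30 for the 44 and 0.19 for all genes tested, and 36 of the 44 lay above that median. Cbr3, a carbonyl reductase, had an SD of 1.82, followed by Gsta1 (1.44), Gstm3 (1.36), the exporter gene Abcc4 (1.11) and Gsta2 (0.95). At the other end were the mitochondrial superoxide dismutase Sod2 (0.096), Keap1 (0.10) and Glrx (0.11).

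For Cbr3, Gstm3 and Nqo1 the highest library was LF 2 in LF, HF 2 in HF, HF+CR 3 in HF+CR and HF+Ex 1 in HF+Ex. Gstp2, with an SD of 0.86, was instead highest in HF 1 among the HF libraries, at 14.01 RPKM against 2.81 RPKM in HF 2. Cbr3 was at 0.684, 17.4 and 0.439 RPKM in LF 1 to 3, at 2.67, 25.7 and 1.85 RPKM in HF, at 0.296, 0.361 and 53.7 RPKM in HF+CR, and at 54.2, 6.01 and 9.18 RPKM in HF+Ex. In LF+CR it was at 7.18, 12.4 and 9.47 RPKM, and in LF+Ex at 1.13, 0.18 and 0.935 RPKM. One library thus stood far above the other two in LF, HF, HF+CR and HF+Ex, whereas LF+CR was evenly raised and LF+Ex evenly low. Gstm3, a mu-class transferase, was at 62.8, 270 and 23.9 RPKM in LF, 39.6, 202 and 61.8 RPKM in HF and 25.8, 37.2 and 497 RPKM in HF+CR. It was at 330, 467 and 247 RPKM in LF+CR, 10.2, 36.3 and 29.3 RPKM in LF+Ex and 265, 115 and 162 RPKM in HF+Ex.

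Nqo1, a quinone reductase used as the standard readout of NRF2, had the same highest library in these 4 groups, but its highest value of the series was in LF+CR 1. It was at 5.9, 10 and 3.35 RPKM in LF, 6.9, 13.8 and 7.58 RPKM in HF, and 1.52, 3.12 and 12.7 RPKM in HF+CR. It was at 15, 12 and 9.08 RPKM in LF+CR, 2.12, 2.96 and 3.53 RPKM in LF+Ex and 14.7, 7.07 and 9.9 RPKM in HF+Ex. Abcc4, which exports conjugates across the sinusoidal membrane, was listed at 0 in 6 libraries, namely LF 3, LF+Ex 1 to 3 and HF+CR 1 and 2, and was at 11.3 RPKM in HF+CR 3, 5.5 RPKM in LF 2 and 3.83 RPKM in HF+Ex 1.

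Counted over all 44 genes, LF 2 was the highest of the 3 LF libraries for 31, HF 2 of the HF libraries for 30, HF+CR 3 of the HF+CR libraries for 30 and HF+Ex 1 of the HF+Ex libraries for 28. Over all genes tested the same libraries were highest for 56.5%, 62.5%, 51.2% and 21.7%. LF 2, HF 2 and HF+CR 3 were also the highest of their groups in the bile duct, Kupffer, stellate and lymphocyte sums. In HF these were 75.3 RPKM for bile duct in HF 2 against 43.2 and 47.5 RPKM, 648 against 388 and 300.4 RPKM for Kupffer cells, 125 against 106 and 104 RPKM for stellate cells and 8.75 against 5.99 and 6.07 RPKM for lymphocytes. HF+Ex 1 was not the highest of its group for bile duct (54.2 RPKM, against 56.9 RPKM in HF+Ex 2) and was the lowest for stellate cells (107 RPKM). Its Kupffer sum was the highest of its group, at 499.99 RPKM against 499.53 RPKM in HF+Ex 2 and 425 RPKM in HF+Ex 3. Its lymphocyte sum was 8.56 RPKM, against 4.64 RPKM in HF+Ex 2 and 8.87 RPKM in HF+Ex 3. The part of these cells in the levels of the 44 genes was not tested, and in whole liver fewer cells of a type and less RNA per cell cannot be told apart.

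**Figure D2:**
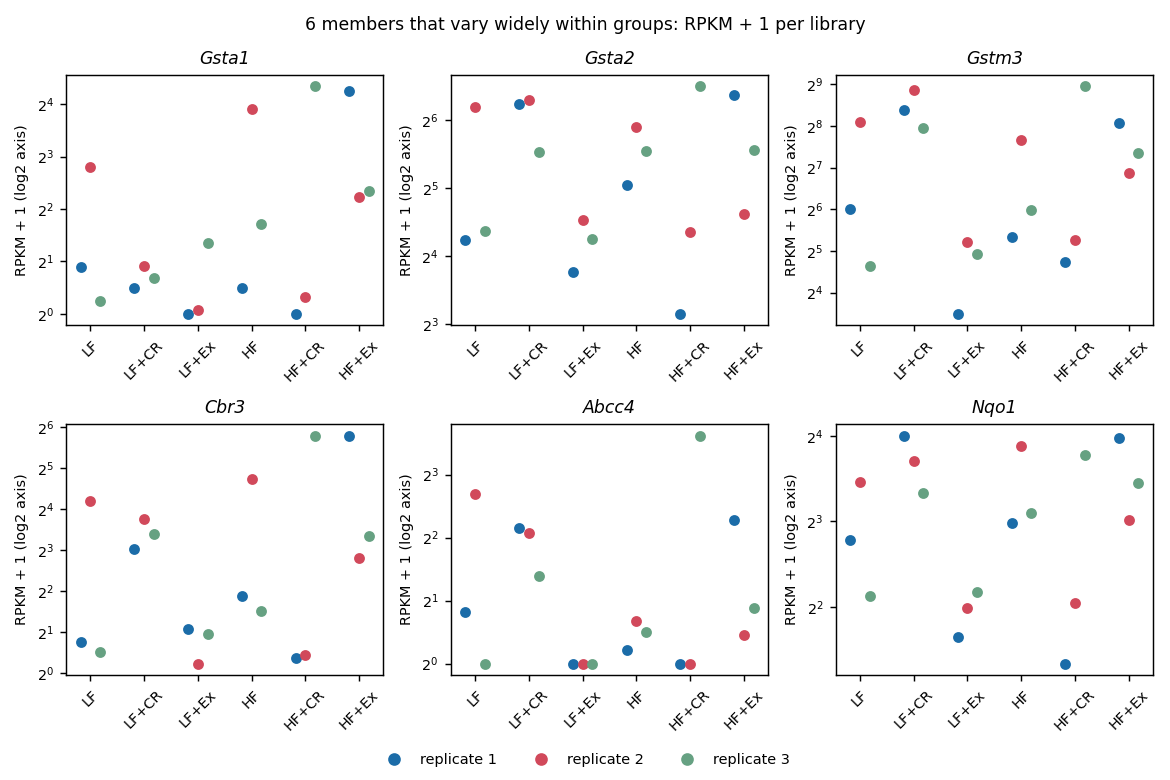
RPKM + 1 on a log2 axis for 6 genes that vary widely within groups, 1 point per library, coloured by replicate number. In LF and HF the replicate 2 point is highest for Gsta1, Gsta2, Gstm3, Cbr3, Abcc4 and Nqo1, and in HF+CR the replicate 3 point.

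The effect of CR on the LF diet was read from LF+CR against LF. Glrx, the cytosolic glutaredoxin that removes glutathione from proteins, rose, and Abcc3, an exporter of conjugates on the blood side of the hepatocyte, fell. No other of the 44 was called, so 1 was higher and 1 lower, while limma called 673 of all genes (6.50%), 312 higher (3.01%) and 361 lower (3.49%). The median difference was 0.13 for the 44 and 0.00045 for all genes, but that of the 44 was 0.24 without LF 2, 0.053 without LF 1, 0.044 without LF 3 and 0.084 without LF+CR 2. At an unadjusted p under 0.05 there were 7 higher and 3 lower (11.2% of all genes each way).

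Glrx, NM_053108, lies on chromosome 13 from 75839885 to 75850151. It was at 31.7, 29.2 and 28.5 RPKM in LF and at 40.9, 42.3 and 40.4 RPKM in LF+CR. The groups did not overlap, and the difference was 0.46 ± 0.10 (adjusted p = 0.0167). Abcc3, NM_029600, lies on chromosome 11 from 94343295 to 94393017. It was at 113, 102 and 76.3 RPKM in LF and at 36.3, 58.3 and 62.8 RPKM in LF+CR, with LF+CR 1 the lowest of the 18 libraries. The difference was -0.90 ± 0.23 (adjusted p = 0.0304), and without LF+CR 1 it was -0.66 (adjusted p = 0.132), so this call rests on that library among others.

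Mgst1 and Cat came next without passing. Mgst1 was at 2572, 3073 and 3030 RPKM in LF and 1941, 2312 and 2086 RPKM in LF+CR, a difference of -0.45 ± 0.13 (adjusted p = 0.0501). Cat, the peroxisomal catalase, was at 1098, 1353 and 1120 RPKM in LF and 904, 923 and 870 RPKM in LF+CR, a difference of -0.40 ± 0.12 (adjusted p = 0.0552). Neither gene had overlapping groups. Over the 44, groups did not overlap for 6 higher and 3 lower genes, against 11.6% and 11.7% of all genes.

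Gstm3, Gsta2 and Nqo1 had positive differences of large error and did not pass. Gstm3 had a mean of 119 ± 132 RPKM in LF and 348 ± 111 RPKM in LF+CR (2.16 ± 0.99, adjusted p = 0.212), and Gsta2 36.6 ± 30.9 and 65.7 ± 17.7 RPKM (1.09 ± 0.69, 0.381). Nqo1 was at 6.42 ± 3.36 and 12.1 ± 2.99 RPKM (0.89 ± 0.49, adjusted p = 0.304). In each of these 3 genes LF 2 was the library of LF nearest to the LF+CR levels. Gstm1 (0.35 ± 0.40), Gstp1 (-0.17 ± 0.35) and Gsta1 (-0.63 ± 1.05) did not pass either. The signs of Gsta1, Gstp1, Gstm1, Nfe2l2, Gclm and Hmox1 in this comparison changed when some single libraries were left out. Gsta1, Gsta2 and the Gstp1 and Gstp2 pair share 62.3% to 89.7% of their 50-base stretches with other genes, so the split of reads within them is uncertain. The share was 28.8% for Gstm3, 23.1% for Gstm1 and for Sod1, and 50.2% for Sod2, so their values carry the same uncertainty in part.

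Neither the regulators nor the glutathione-making enzymes were called. Nfe2l2 was at 32.2 ± 7.35 RPKM in LF and 32.0 ± 3.33 RPKM in LF+CR (0.01 ± 0.19), and Keap1 at 19.0 ± 1.87 and 17.3 ± 1.42 RPKM (-0.13 ± 0.10). Gclc, the catalytic subunit of the rate-limiting step of glutathione synthesis, had a difference of -0.53 ± 0.34, and Gclm, its modifier subunit, of -0.09 ± 0.18. The heme oxygenase gene Hmox1 (-0.20 ± 0.40), Gpx1 (-0.22 ± 0.16), Sod1 (-0.12 ± 0.12) and the thioredoxin inhibitor Txnip (0.60 ± 0.20, adjusted p = 0.0873) did not pass. Txnip was at 30.6, 18.9 and 18.9 RPKM in LF and 32.4, 36.2 and 34.1 RPKM in LF+CR, without overlap.

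Without the bile duct libraries 7 of the 44 rose in LF+CR and none fell, beside 739 of all genes (7.14%). They were Glrx, Gsta2, Gsta4, Gstm3, Gstt3, Nqo1 and Abcc4. Gstm3 differed by 3.08 ± 0.65 (adjusted p = 0.0146), Gsta4 by 1.32 ± 0.31 (0.0247) and Nqo1 by 1.23 ± 0.34 (0.0462). LF 2, left out here, was at the same time the library highest for 31 of the 44 in its group. Without the pancreas libraries only Glrx was called (adjusted p = 0.0404), beside 215 of all genes (2.08%).

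**Figure D3:**
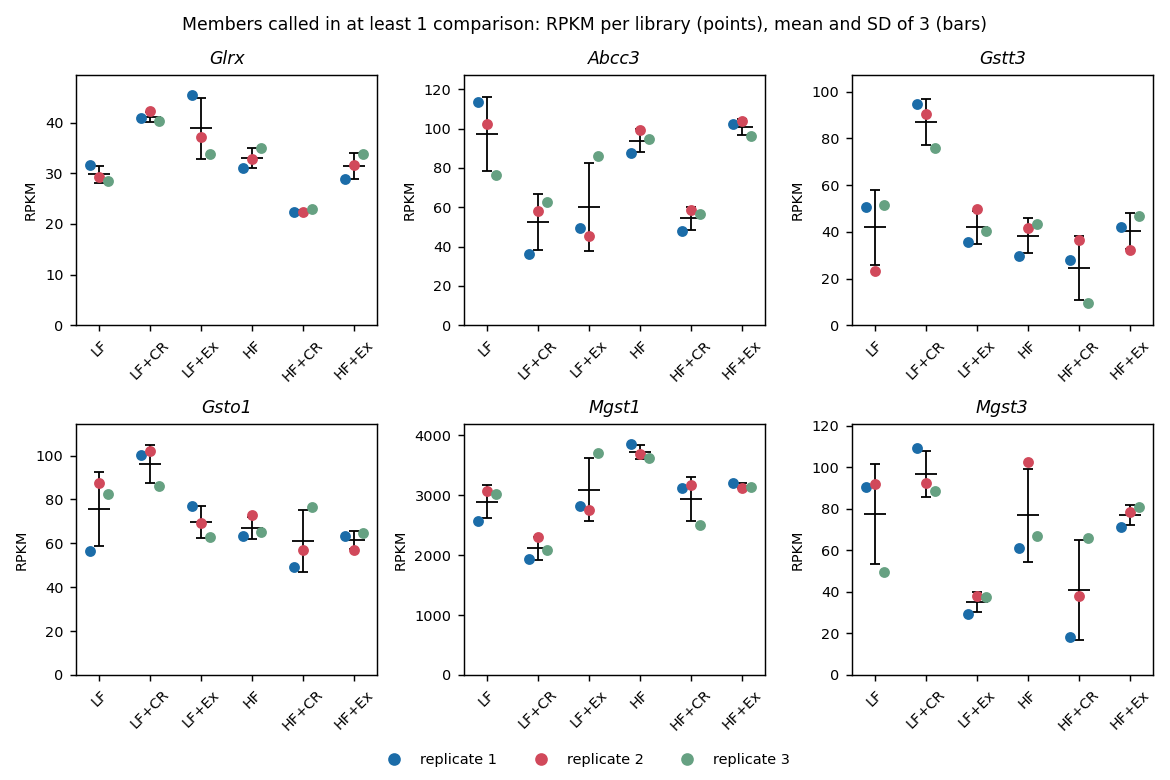
RPKM per library (points, coloured by replicate number) with mean and SD of 3 libraries (black bars) for the 6 genes called in at least 1 comparison. Glrx sits at 40.4 to 42.3 RPKM in LF+CR and at 22.3 to 22.9 RPKM in HF+CR, on either side of LF and HF.

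The effect of CR on the HF diet was read from HF+CR against HF. Glrx fell and was the only gene of the 44 called, beside 145 of all genes (1.40%), 65 higher (0.628%) and 80 lower (0.772%). At an unadjusted p under 0.05 there were 1 higher and 6 lower, against 7.03% and 6.94% of all genes. Glrx was at 31.1, 32.8 and 35 RPKM in HF and at 22.3, 22.4 and 22.9 RPKM in HF+CR, the 3 lowest libraries of the series for this gene. The difference was -0.53 ± 0.10 (adjusted p = 0.0208). Of the 44 genes, 35 had a negative difference, with a median of -0.16, against 4977 of 10356 genes and a median of 0.0088 over all genes. With the pancreas libraries left out, 24 of the 44 were negative, with a median of -0.016, and without the bile duct libraries 39 were, with a median of -0.30. Single libraries moved this median too, to -0.016 without HF+CR 1, -0.0995 without HF+CR 2, -0.30 without HF+CR 3, -0.052 without HF 2 and -0.27 without HF 1. No gene of the 44 was called by limma with the pancreas libraries left out, beside 28 of all genes (0.270%), while Glrx was still at -0.52 ± 0.10 (adjusted p = 0.0719). The 8 hepatocyte markers other than Alb summed to 15974 to 17563 RPKM in HF and 22520 to 23989 RPKM in HF+CR, and their part in the differences was not tested.

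Abcc3 was at 87.7, 99.1 and 94.9 RPKM in HF and at 47.8, 58.8 and 56.7 RPKM in HF+CR, without overlap, but did not pass (-0.78 ± 0.23, adjusted p = 0.120). Its mean was thus 97.3 ± 19.0 RPKM in LF and 93.9 ± 5.77 RPKM in HF, and 52.5 ± 14.2 and 54.4 ± 5.84 RPKM in LF+CR and HF+CR. Gstk1, the mitochondrial and peroxisomal kappa transferase, was at 158, 185 and 188 RPKM in HF and 142, 142 and 95.1 RPKM in HF+CR (-0.50 ± 0.16, adjusted p = 0.147). Gstm7 was at 34.6, 35.8 and 34.4 RPKM in HF and 52.4, 61.5 and 43.1 RPKM in HF+CR (0.56 ± 0.18, adjusted p = 0.152). The groups did not overlap for 2 of the 44 that were higher and 5 that were lower, against 10.7% and 8.29% of all genes.

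Nqo1 had a mean of 9.43 ± 3.81 RPKM in HF and 5.78 ± 6.05 RPKM in HF+CR (-0.94 ± 0.49, adjusted p = 0.416). Nfe2l2 differed by -0.21 ± 0.19, Keap1 by -0.07 ± 0.10, Gclm by -0.04 ± 0.18 and Hmox1 by -0.14 ± 0.40. Gclc differed by less than 0.01 with an SE of 0.34, and Gstm3 by -0.01 ± 0.99. Gsta1 (-0.48 ± 1.05), Gsta2 (-0.83 ± 0.69), Gstm1 (-0.16 ± 0.40), Gstp1 (0.60 ± 0.35), Cat (0.06 ± 0.12), Gpx1 (-0.21 ± 0.16), Sod1 (-0.09 ± 0.12) and Txnip (-0.11 ± 0.20) did not pass. The direction of Gclc, Gclm, Hmox1, Gsta1, Gstm1, Gstm3, Cat and Txnip changed when some single libraries were left out. Signs printed for these genes are thus not settled.

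Without the bile duct libraries, which removes HF+CR 3, 6 of the 44 were called in HF+CR against HF, beside 390 of all genes (3.77%). Glrx, Mgst3 (-1.47 ± 0.30, adjusted p = 0.0168), Nqo1 (-1.63 ± 0.34, 0.0193) and the lipid peroxide reductase Gpx4 (-1.16 ± 0.22, 0.0133) were lower, and Gstm6 (0.75 ± 0.18, 0.0392) and Gstm7 (0.69 ± 0.13, 0.0129) were higher. The values of Gpx4 are uncertain, because 61.7% of its 50-base stretches also occur in the pseudogene Gpx4-ps2. HF+CR then rests on HF+CR 1 and 2, of which HF+CR 1 is a pancreas library. HF+CR 3 was the highest of its group for Mgst3, Nqo1 and Gpx4 and the lowest for Gstm6 and Gstm7. Leaving it out thus widens the differences of these genes by itself.

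The difference between the CR effects on the 2 diets was tested as an interaction. Glrx was the only gene of the 44 called, with a difference of -0.98 ± 0.14 (adjusted p = 0.00327), beside 106 of all genes (1.02%). Glrx was higher in all 3 LF+CR libraries than in any LF library and lower in all 3 HF+CR libraries than in any HF library. Its interaction was called in 29 of 29 alternative settings, with values of -1.03 to -0.94 and adjusted p of 0.00221 to 0.0170, and it was -0.98 both without the pancreas and without the bile duct libraries. The 3 genes next in order did not pass, namely Gstt3 (-1.90 ± 0.53, adjusted p = 0.129), Mgst3 (-1.41 ± 0.49, 0.240) and Cat (0.46 ± 0.17, 0.276).

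Over the 44 genes, 21 were higher with CR on LF and lower with CR on HF, 3 went the reverse way, 6 were higher in both and 14 lower in both. Over all genes tested the shares were 18.6% higher on LF and lower on HF, 20.6% the reverse, 31.4% higher in both and 29.4% lower in both. The 2 comparisons share no library, but single libraries moved these signs. In HF+CR against HF, 35 of the 44 were negative. That number was 24 without HF+CR 1, 23 without HF 2 and 39 without HF+CR 3. The median interaction of the 44 was -0.19, and it was -0.086 without the pancreas and -0.52 without the bile duct libraries. Without the bile duct libraries 7 of the 44 were called in the interaction, all negative, beside 270 of all genes (2.61%). They were Glrx, Nqo1 (-2.86 ± 0.48, adjusted p = 0.00724), Gsta2 (-3.46 ± 0.64, 0.0125), Gstm3 (-4.41 ± 0.92, 0.0231), Mgst3 (-1.99 ± 0.42, 0.0255), Gsta4 (-1.89 ± 0.44, 0.0395) and Cbr3 (-5.05 ± 1.22, 0.0448). LF 2 and HF+CR 3, left out here, were the highest of their groups for 31 and 30 of the 44. For genes highest in both, as these were apart from Glrx, leaving out both libraries makes the interaction more negative by itself. The calls beyond Glrx are thus no separate support for an interaction. HF 2, the highest of its group for 30 of the 44, was kept. Without the pancreas libraries only Glrx was called, beside 37 of all genes (0.357%).

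**Figure D4:**
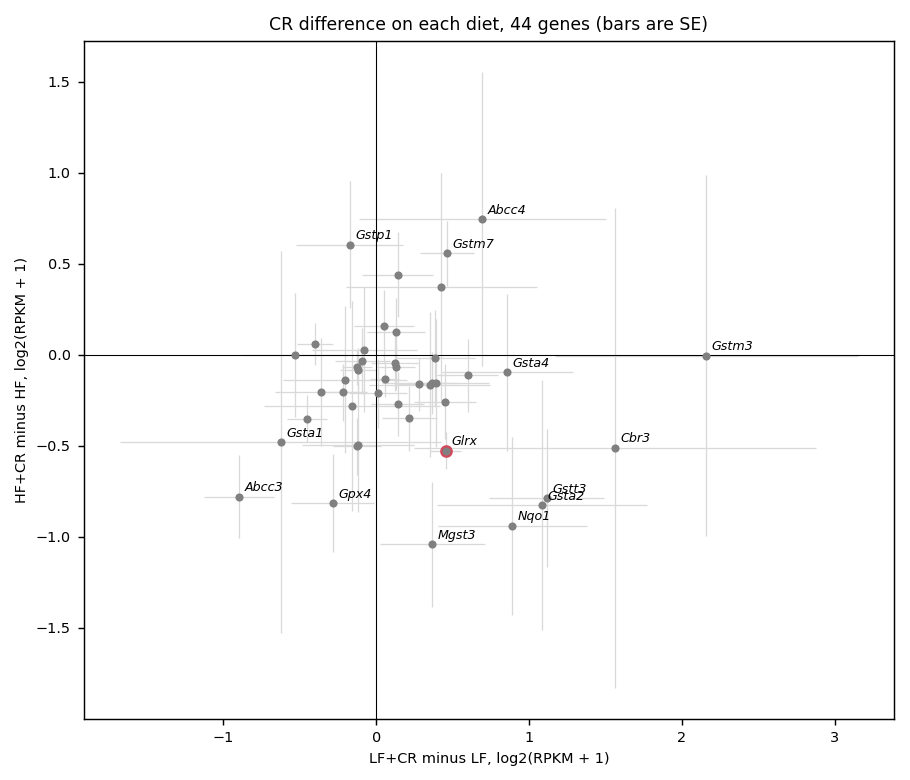
CR difference on LF (x axis) and on HF (y axis) in log2(RPKM + 1) for the 44 genes, with SE bars and 14 genes named. Glrx (red) lies at 0.46 on LF and -0.53 on HF with short bars, while Gstm3, Cbr3, Gsta1 and Abcc4 have bars of 0.81 to 1.32 in each direction.

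The diets under CR were set side by side in HF+CR against LF+CR. Here 5 of the 44 were called, the largest number in any comparison, beside 1013 of all genes (9.78%), 487 higher (4.70%) and 526 lower (5.08%). Glrx, Gstt3, Mgst3 and Gsto1 were lower in HF+CR and Mgst1 was higher. That count is near the share of all genes.

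Glrx differed by -0.84 ± 0.10 (adjusted p = 0.000191) and was called in 29 of 29 alternative settings. Gstt3, a theta-class transferase of small electrophiles, NM_133994 on chromosome 10 from 75774117 to 75781422, was at 94.6, 90.6 and 75.9 RPKM in LF+CR and 28, 36.4 and 9.48 RPKM in HF+CR. Its difference was -1.96 ± 0.38 (adjusted p = 0.00485), HF+CR 3 was the lowest library, and 26.0% of its 50-base stretches also occur in the gene model Gm20441. Mgst3, a microsomal transferase with peroxidase activity, NM_025569 on chromosome 1 from 167371966 to 167393841, was at 109, 92.5 and 88.6 RPKM in LF+CR and 18.1, 38.1 and 66 RPKM in HF+CR. It differed by -1.40 ± 0.34 (adjusted p = 0.0178), with HF+CR 1 the lowest.

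Gsto1 is an omega-class transferase that returns oxidised thiols to their reduced form, much as glutaredoxins do. Gsto1, NM_010362 on chromosome 19 from 47854973 to 47864790, was at 100, 102 and 86 RPKM in LF+CR and 49.3, 57.1 and 76.7 RPKM in HF+CR. It differed by -0.67 ± 0.17 (adjusted p = 0.0210). Mgst1, NM_019946 on chromosome 6 from 138140527 to 138156755, was at 1941, 2312 and 2086 RPKM in LF+CR and 3114, 3172 and 2512 RPKM in HF+CR, a difference of 0.47 ± 0.13 (adjusted p = 0.0334). The groups did not overlap for any of these 5 genes. Of the 44 genes, 2 had groups that did not overlap and were higher and 9 were lower, against 15.6% and 15.7% of all genes. Kupffer cell and macrophage markers summed to 161 to 223 RPKM in LF+CR and 248 to 453 RPKM in HF+CR, lymphocyte markers to 1.08 to 1.53 and 3.82 to 9.79 RPKM, and the hepatocyte markers other than Alb to 17641 to 18509 and 22520 to 23989 RPKM. Their part in these differences was not tested.

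Which of the 44 passed changed with the libraries used. When the pancreas libraries were dropped only Glrx was called (adjusted p = 0.00385), beside 131 of all genes (1.26%). Without the bile duct libraries 18 were called, 14 lower and 4 higher, beside 1397 of all genes (13.5%). The 14 lower were the 4 above with Gsta2, Gsta4, Gstm1, Gstm3, Gstt2, Nqo1, Gpx4, Abcc4, the microsomal epoxide hydrolase gene Ephx1 and Cbr3, and the 4 higher were Gstm6, Gstm7, Mgst1 and Cat. Nqo1 then differed by -1.99 ± 0.34 (adjusted p = 0.00224) and Gstm1 by -1.61 ± 0.29 (0.00324). Without HF+CR 3 alone the count was 14, beside 1231 of all genes (11.9%). HF+CR 3 was the highest of the HF+CR libraries for 30 of the 44, so leaving it out lowers the HF+CR mean of those genes by itself.

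HF against LF gave the difference of diet alone. None of the 44 was called by limma, beside 42 of all genes (0.406%), 27 higher (0.261%) and 15 lower (0.145%). At an unadjusted p under 0.05 there were 3 higher and 1 lower, against 7.90% and 8.92% of all genes. The smallest p values were those of Txn1, the cytosolic thioredoxin (0.57 ± 0.14, adjusted p = 0.0759), Mgst1 (0.37 ± 0.13, 0.178) and Sod1 (-0.31 ± 0.12, 0.220). Txn1 was at 96, 133 and 137 RPKM in LF and 164, 201 and 175 RPKM in HF. Mgst1 was at 3853, 3694 and 3615 RPKM in HF, above the 3 LF libraries, and Sod1 was at 2709, 2722 and 2718 RPKM in LF and 2394, 2222 and 1996 RPKM in HF. The groups of these 3 genes did not overlap, although none passed, and over the 44 there were 3 such genes higher and 3 lower, against 7.97% and 10.9% of all genes.

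The Ex comparisons called none of the 44 by limma. LF+Ex against LF and HF+Ex against HF called 0 of all 10356 genes (0.00%), and the interaction of Ex with diet also called 0. At an unadjusted p under 0.05 there were 1 of the 44 higher and 7 lower in LF+Ex against LF, beside 944 of all genes (9.12%), that is 0.956% and 8.16%, and 0 in HF+Ex against HF, beside 377 of all genes (3.64%), that is 0.946% and 2.69%. For the interaction there were 6 higher and 1 lower, beside 3.82% and 1.25%. The groups did not overlap for 1 of the 44 higher and 6 lower in LF+Ex against LF (0.830% and 11.4% of all genes), and for 1 higher and 6 lower in HF+Ex against HF (2.96% and 8.06%).

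In LF+Ex against LF, 37 of the 44 had a negative difference, with a median of -0.29, but so had 8191 of all 10356 genes, with a median of -0.13. The median of the 44 was -0.15 without LF 2 and -0.47 without LF 3. Under median-of-ratios scaling, which set the median of all genes to 0.0017, 28 of the 44 were negative, with a median of -0.13. The smallest p values were those of Glrx (0.36 ± 0.10, adjusted p = 0.506), Abcc3 (-0.72 ± 0.23, 0.512) and Mgst3 (-1.08 ± 0.34, 0.514). Glrx was at 45.5, 37.2 and 33.8 RPKM in LF+Ex, above the 3 LF libraries, and Mgst3 at 29.4, 37.9 and 37.7 RPKM, below them. In HF+Ex against HF the smallest were Gstk1 (-0.33 ± 0.16), Gstm7 (-0.33 ± 0.18) and Mgst1 (-0.24 ± 0.13), all with an adjusted p of 1, and in the interaction Glrx (-0.43 ± 0.14), the thioredoxin reductase gene Txnrd1 (0.70 ± 0.27) and Abcc3 (0.82 ± 0.32), all with an adjusted p of 0.818.

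The diets under Ex were set side by side in HF+Ex against LF+Ex. No gene of the 44 was called by limma, beside 533 of all genes (5.15%), 428 higher (4.13%) and 105 lower (1.01%). At an unadjusted p under 0.05 there were 16 of the 44 higher and 2 lower, against 16.8% and 5.44% of all genes. All 3 HF+Ex libraries lay above all 3 LF+Ex libraries for 26 of the 44, against 24.2% of all genes, and the 44 had a median difference of 0.36 against 0.076 for all genes.

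Those 26 genes spanned most roles. All 4 enzymes of quinones, heme, epoxides and carbonyls were among them: Nqo1 differed by 1.54 ± 0.49 (adjusted p = 0.0777), Hmox1 by 0.99 ± 0.40 (0.163), Cbr3 by 3.22 ± 1.32 (0.163) and Ephx1 by 0.41 ± 0.37 (0.545). Hmox1, which breaks down heme, was at 10.5, 9.76 and 13.5 RPKM in LF+Ex and 22.7, 23.9 and 22.6 RPKM in HF+Ex. Nfe2l2 was at 18.7, 21.4 and 28.9 RPKM in LF+Ex and 29.9, 41.6 and 33.7 RPKM in HF+Ex (0.60 ± 0.19, adjusted p = 0.0777), while Keap1 was at 17.8, 16.3 and 17.6 RPKM and 17.9, 18.6 and 17.1 RPKM.

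The smallest p values belonged to Abcc3, Gstp1 and Mgst3. Abcc3 was at 49.5, 45.5 and 85.9 RPKM in LF+Ex and 103, 104 and 96.1 RPKM in HF+Ex (0.79 ± 0.23, adjusted p = 0.0556). Mgst3 was at 71.4, 78.6 and 80.8 RPKM in HF+Ex, above LF+Ex without overlap (1.12 ± 0.34, 0.0695). Gstp1 went the other way, at 1564, 1640 and 690 RPKM in LF+Ex and 785, 449 and 435 RPKM in HF+Ex (-1.17 ± 0.35, 0.0623), and LF+Ex 3 lay within the range of HF+Ex.

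Markers of other liver cells moved with this comparison. The 11 Kupffer cell and macrophage markers summed to 217 to 298 RPKM in LF+Ex and 425 to 500.0 RPKM in HF+Ex, the 10 stellate cell and fibroblast markers to 64.2 to 68.0 and 107 to 134 RPKM, the 10 lymphocyte markers to 1.38 to 2.56 and 4.64 to 8.87 RPKM and the 11 bile duct markers to 19.3 to 28.5 and 33.0 to 56.9 RPKM. Endothelial markers overlapped, at 80.6 to 87.0 and 79.5 to 94.9 RPKM. Alb was listed at 0 in all 3 LF+Ex libraries and had a value in all 3 HF+Ex libraries, so the hepatocyte sum was 16633 to 23375 RPKM in LF+Ex and 44023 to 48716 RPKM in HF+Ex. Without Alb it was lower in HF+Ex, at 13220 to 15549 RPKM. The part of these cells, or of the Alb values, in the differences of the 44 genes was not tested.

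Without the bile duct libraries, neither of which is in HF+Ex or LF+Ex, the differences of this comparison stayed as they were and only the standard errors changed, which come from all libraries in the fit. Then 11 of the 44 were called, 10 higher and 1 lower, beside 1114 of all genes (10.8%). The higher were Gsta1, Gstm2, Gstm3, Mgst3, Nfe2l2, Nqo1, Srxn1, Txnrd1, Abcc3 and Cbr3, with adjusted p of 0.00863 to 0.0493, and the lower was Gstp1 (adjusted p = 0.0254). The libraries left out held outlying values of some of these genes. In HF+CR 3 Cbr3 was at 53.7 RPKM, against 0.296 and 0.361 RPKM in HF+CR 1 and 2, and Gstm3 at 497 RPKM, against 25.8 and 37.2 RPKM. These libraries were picked after seeing the data, so the 11 calls are no separate support for the difference. Fitted on these groups alone, 11 were called, all higher, with Hmox1, Txnip and Gpx4 among them and not Nfe2l2, Abcc3 or Gstp1, beside 872 of all genes (8.42%). Under median-of-ratios scaling 2 were called, Glrx (-0.38 ± 0.098, adjusted p = 0.0317) and Gstp1 (-1.27 ± 0.33, 0.0327), both lower in HF+Ex, beside 756 of all genes (7.30%). With the pancreas libraries left out 0 were called, beside 33 of all genes (0.319%).

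**Figure D5:**
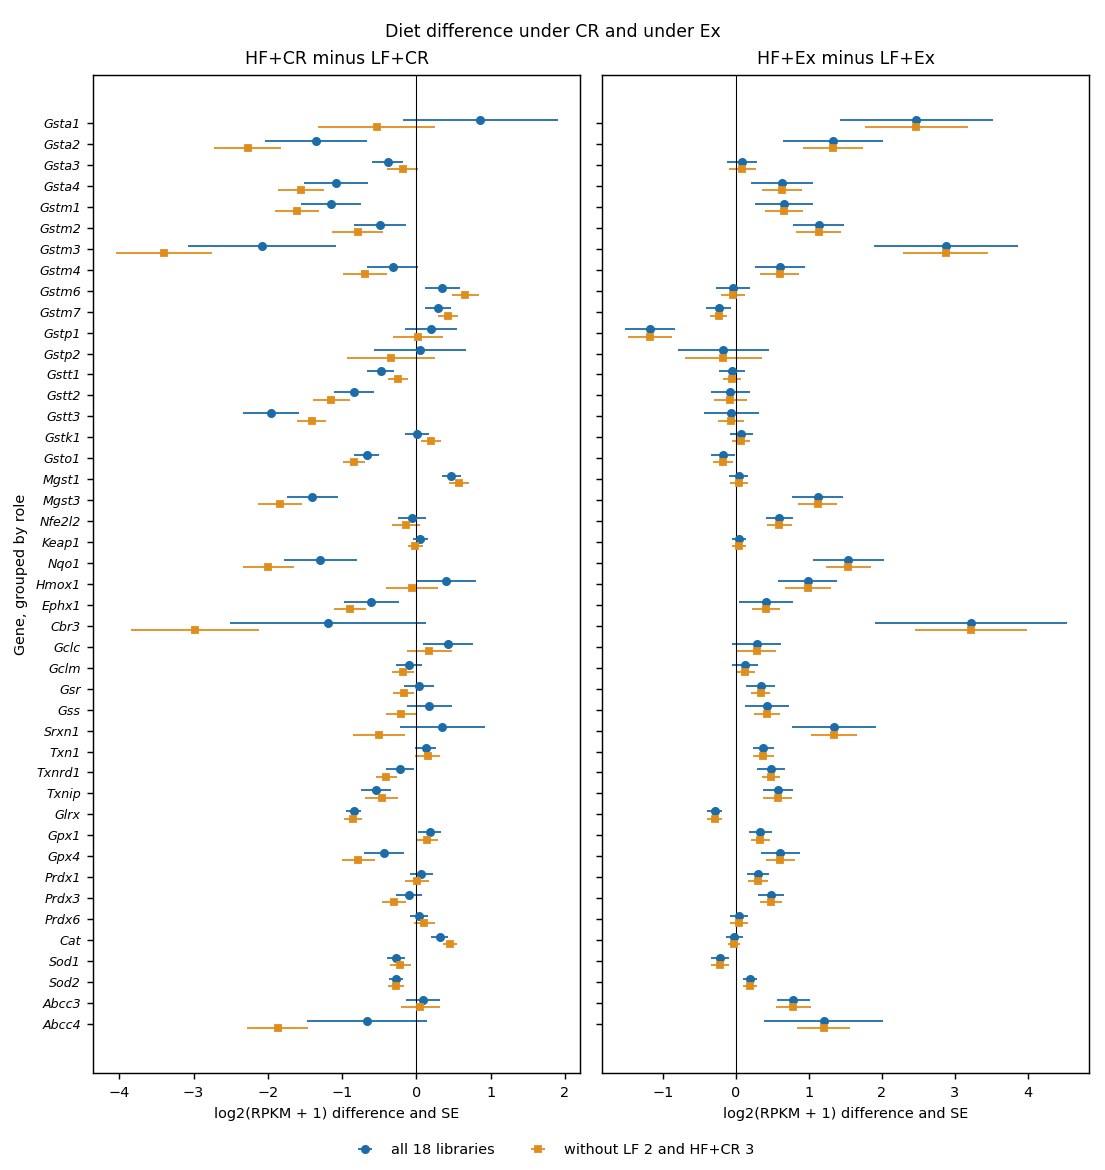
HF+CR minus LF+CR (left) and HF+Ex minus LF+Ex (right) in log2(RPKM + 1) with SE for the 44 genes, from all 18 libraries (blue circles) and without LF 2 and HF+CR 3 (orange squares). On the right the circles and squares coincide, with shorter bars for many squares, and 33 of 44 circles are above 0, whereas on the left 25 of 44 are below 0.

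The wider pathway was described with 76 other genes of NADPH supply, glutathione breakdown, heme and iron handling and redox repair, of which 74 were in the table and 64 passed the filter. In LF+CR against LF 4 rose and 4 fell, beside 6.50% of all genes called. Me1, the malic enzyme that supplies NADPH, rose from 89.96 ± 16.4 to 231 ± 60.2 RPKM (1.33 ± 0.29, adjusted p = 0.0150), and G6pdx, the entry enzyme of the pentose phosphate pathway, from 2.70 ± 0.799 to 8.26 ± 4.64 RPKM (1.21 ± 0.31, 0.0304). Idh1, which also makes NADPH, rose from 132 ± 10.4 to 198 ± 1.54 RPKM (0.59 ± 0.098, 0.00324), and the pi-class transferase Gstp3 rose by 0.99. Aldh1a1, a retinal dehydrogenase, fell from 849 ± 26.4 to 338 ± 54.6 RPKM (-1.34 ± 0.23, 0.00440), and Msrb1, Oplah and Nfe2l1 fell by 0.55, 0.52 and 0.59 on the log2 scale. Idh1 and Aldh1a1 were the ones still called when the pancreas libraries were left out. When the bile duct libraries were left out 5 were higher, with Cbr1 and Pgd added and Gstp3 lost, and 2 were lower, Aldh1a1 and Msrb1, beside 7.14% of all genes.

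In HF+CR against HF 2 of the 64 rose and 1 fell, beside 1.40% of all genes. Idh1 rose from 145 ± 7.11 to 199 ± 21.6 RPKM (0.45 ± 0.098, adjusted p = 0.0354) and Cbs, which begins the conversion of homocysteine to cysteine, rose from 63.9 ± 1.68 to 110 ± 4.57 RPKM (0.78 ± 0.17, 0.0350). Glrx5, the mitochondrial glutaredoxin of iron-sulfur cluster assembly, fell from 111 ± 15.9 to 66.9 ± 9.78 RPKM (-0.72 ± 0.14, 0.0207). None of the 64 was called by limma with the pancreas libraries left out. Without the bile duct libraries 2 were higher and 3 lower, the latter being Glrx5, Fth1 and Gpx7.

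In HF+CR against LF+CR 5 were higher and 9 lower, beside 9.78% of all genes. The lower ones with the smallest p were Me1 (-2.14 ± 0.29, adjusted p = 0.000450), Tkt (-0.91 ± 0.17, 0.00472), the carbonyl reductase Cbr1 (-2.44 ± 0.47, 0.00488) and G6pdx (-1.46 ± 0.31, 0.00786). Cbr1 was at 372 ± 88.4 RPKM in LF+CR and 76.2 ± 51.8 RPKM in HF+CR. The higher ones included Lap3 (0.48), Abcg2 (0.73), Msrb1 (0.60) and Aldh1a1 (0.93). Me1 alone was called with the pancreas libraries left out, and without the bile duct libraries 4 were higher and 14 lower, beside 13.5% of all genes. In HF+Ex against LF+Ex, Sod3, Taldo1 and Ggct rose by 0.86, 0.49 and 0.94 and none fell, beside 5.15% of all genes. All 3 calls were lost with the pancreas libraries left out, and without the bile duct libraries 7 were higher and 1, Prdx4, was lower. None of the 64 was called by limma in the other comparisons with all 18 libraries, and without the bile duct libraries 1 was higher and 2 were lower in the CR by diet interaction.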

How the data were processed

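The data are RPKM values of 18 polyA RNA libraries of mouse liver. Per the labels, frozen liver was extracted with Trizol and polyA RNA went into Illumina libraries. TopHat 1.4.1, Cufflinks 1.3.0 and mm10 are named in the submitters' processing notes, and the annotation version is not given in the sources used here. The authors deposited RPKM per RefSeq transcript without counts. The 550476 values of the series table were the same as in the single-sample tables. Groups and replicate numbers come from the sample titles.

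Of 30582 transcript rows, 30003 got a symbol from RefSeq (GRCm38.p6) and another 180 from GENCODE. The 399 others were left under their accession. A gene was represented by its row with the highest mean. Cufflinks splits reads between transcripts, so a gene can be listed at 0 or low where another row took its reads. Txnrd1 and Txnip rows held 71.8% and 61.1% of the sum of their rows. Shared 50-base stretches were counted in GENCODE transcripts.

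The filter required 1 RPKM or more in 3 or more libraries (10356 genes). Values were analysed as log2(RPKM + 1) from the deposited RPKM, without further scaling, in limma 3.58.1 (R 4.3.3), in a single fit with 6 group means, a trend of variance on level and 12 residual degrees of freedom. A fold on this scale understates the change of low genes. Tests were two-sided, with Benjamini-Hochberg adjustment over all genes tested, and 7 comparisons and 2 interactions were contrasts of this model.

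Genes named are those called in any comparison, the 3 with the smallest p where none was called, and 15 named in both CR comparisons whatever their result, with others named after their values were seen where they stood next to the threshold, were listed at 0 or varied widely. The 44 genes, the other lists and the tests were chosen with earlier results of these data known. The promoter search, planned for called genes, was widened to all 44. Tested on simulated data for LF+CR against LF over 10356 genes, the model recovered 42%, 72%, 82% and 98% of 50 genes changed 1.5, 2, 3 and 4-fold in RPKM + 1. The changed genes were drawn at random from all genes tested. The 44 had a median within-group SD of 0.30, against 0.19 for all genes, so these rates are not those of the 44.

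Other settings tried changed the pseudocount (0.1), the filter (none, or a mean of 5 RPKM), the scaling (median of ratios, quantile), the trend (none), the rows (summed), the samples (groups compared alone, each library left out) or the design (replicate number as a block). Added after seeing the data was leaving out the pancreas or the bile duct libraries.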

Additional observations from a re-analysis of the deposited data

Results flagged for a closer look

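Glrx was flagged because its CR difference was not the same on the 2 diets by the test of that difference itself, at -0.98 ± 0.14 on the log2(RPKM + 1) scale (limma, adjusted p = 0.00327). With CR it was higher in 3 of 3 LF libraries and lower in 3 of 3 HF libraries than in the groups without CR.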

How the results depend on the processing

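Across the 29 alternatives Glrx was called in 29 in the CR by diet interaction and in HF+CR against LF+CR, in 26 in LF+CR against LF (adjusted p of 0.00777 to 0.0856) and in 23 in HF+CR against HF (0.0128 to 0.104). Abcc3 in LF+CR against LF was called in 21, and in HF+CR against LF+CR Gstt3 was called in 27, Mgst3 in 24, Gsto1 in 22 and Mgst1 in 21. For all other alternatives than those named next, the number of the 44 called stayed within 1.5 times. In LF+CR against LF it was 2, and 1 with no filter, 4 at a mean of at least 5 RPKM, 0 on the groups compared alone, 1 without the pancreas and 7 without the bile duct libraries. In HF+CR against HF it was 1, and 0 on the groups compared alone, 0 without the pancreas and 6 without the bile duct libraries. In HF+CR against LF+CR it was 5, and 2 with no filter, 1 on the groups compared alone, 1 without the pancreas and 18 without the bile duct libraries. In HF+Ex against LF+Ex it was 0, and 2 with median-of-ratios scaling, 1 with quantile normalization, and 11 both on the groups compared alone and without the bile duct libraries. In the CR by diet interaction it was 1, and 7 without the bile duct libraries. Groups fitted alone leave fewer samples in the fit, and the cause of all these shifts was not tested.

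Leaving out 1 library at a time gave 0 to 5 in LF+CR against LF (1 without LF 2, 0 without LF+CR 1 or 2, 5 without HF+CR 3), 0 to 4 in HF+CR against HF (0 without HF 2, HF 3, HF+CR 1 or HF+CR 2, 2 without LF+Ex 3, 4 without HF+CR 3), 2 to 14 in HF+CR against LF+CR (2 without LF+CR 1 or HF+CR 1, 14 without HF+CR 3), 0 to 6 in HF+Ex against LF+Ex (1 without LF 2, LF+CR 1 or HF+CR 1, 2 without LF 3, 4 without LF+Ex 3, 6 without HF+CR 3), 1 to 3 in the CR by diet interaction (3 without HF+CR 3) and 0 to 0 in the others.

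Some uncalled genes changed sign. In LF+CR against LF, Nfe2l2 was -0.0205 without the pancreas libraries, and Gclm was 0.14, Hmox1 0.086, Gsta1 0.12 and Gstp1 0.18 without the bile duct libraries. In HF+CR against HF, quantile normalization gave 0.018 for Gclc and 0.044 for Gstm3, and leaving out the pancreas libraries gave 0.026 for Gclc, 0.13 for Hmox1, 0.30 for Gsta1, 0.13 for Gstm1, 0.78 for Gstm3, -0.015 for Cat and 0.044 for Txnip. With 1 library left out, LF+CR against LF ranged from -0.14 to 0.18 for Nfe2l2, -0.27 to 0.14 for Gclm, -0.61 to 0.086 for Hmox1, -1.16 to 0.12 for Gsta1, -0.43 to 0.18 for Gstp1 and -0.033 to 0.75 for Gstm1. HF+CR against HF ranged from -0.25 to 0.23 for Gclc, -0.12 to 0.046 for Gclm, -0.59 to 0.24 for Hmox1, -1.88 to 0.45 for Gsta1, -0.62 to 0.13 for Gstm1, -1.33 to 0.78 for Gstm3, -0.015 to 0.19 for Cat and -0.35 to 0.044 for Txnip.

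With the replicate number as a block the count called was 2 in LF+CR against LF, 1 in HF+CR against HF, 5 in HF+CR against LF+CR, 1 in the CR by diet interaction and 0 in the others, so no count moved. Deviations of same-numbered libraries from their group means correlated at r = -0.49 to 0.316 over 45 pairs of libraries, with a median of 0.0043. Differently numbered libraries gave r = -0.388 to 0.436 over 90 pairs, with a median of -0.0018. No pairing by number was thus seen, but this check cannot show that there was none.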
